A study of Mus musculus with 33 samples.

Results

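The antibodies labelled CS and MM were used for ChIP-seq, the sequencing of DNA pulled down with a chromatin protein, on wild type mouse embryonic fibroblasts (MEFs). Cells were taken unheated (before) or heat shocked for 12 or 60 min, and the peaks found by only 1 antibody were set against those found by both. At these times CS gave 180, 1781 and 4773 peaks, and MM gave 449, 1927 and 4614. These 13724 peaks were part of the 45686 peaks of all 15 lists used here. A peak with no overlap of at least 1 bp in the other antibody's list of the same time is called single (3688 peaks), and any other peak is called overlapped (10036 peaks).

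Both antibodies were used on cells of strain background 129Sv.BALB/c, CS being an antibody of Cell Signaling and MM a gift of the Morimoto lab. The labels do not name their target, and the file headers call the experiment an Hsf1 ChIP-seq. File names in the headers give a merge of 2 replicates for each wild type library, so there was 1 list per antibody and time, no replicate error, and no test between antibodies or times. MEFs lacking HSF1 (labelled HSF1-/-) were probed with the same antibodies at the same times, and their lists, called without a control library, were used only as a measure of background.

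HSF1 is the transcription factor that raises expression of chaperone genes when proteins unfold in the heat. It binds as a trimer to heat shock elements, which are inverted repeats of nGAAn units. In a ChIP-seq experiment an antibody pulls down chromatin carrying its target, and antibodies against the same protein can recognise different parts or states of it.

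The promoters of 4 genes are given as examples, chosen after values were seen, and do not stand for their classes. Each line gives the window from 250 bases before to 50 bases after the annotated gene start, read 5′ to 3′ along the gene, from RefSeq GRCm38.p6. Capitals mark matches to the longer motif, 3 alternating units read as GAA, 2 free bases, TTC, 2 free bases and GAA, or its reverse complement. Either form contains the shorter motif GAANNTTC, and all were searched on both strands. Hspe1 is shown as a promoter found by both antibodies at every time, Rps18 as one found by MM alone at 12 min, Dnajb6 as one found by MM alone at 60 min, and Fos as one found by CS alone at 12 min and by MM alone at 60 min.
Hspe1 (chr1:55087898-55088197, plus strand): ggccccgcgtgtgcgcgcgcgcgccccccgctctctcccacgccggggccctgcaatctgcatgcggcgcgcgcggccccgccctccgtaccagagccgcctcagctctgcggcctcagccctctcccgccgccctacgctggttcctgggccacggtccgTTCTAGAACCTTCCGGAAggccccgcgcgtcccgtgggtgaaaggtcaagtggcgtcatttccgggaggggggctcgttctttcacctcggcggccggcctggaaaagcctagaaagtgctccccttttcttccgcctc
Rps18 (chr17:33955616-33955915, minus strand): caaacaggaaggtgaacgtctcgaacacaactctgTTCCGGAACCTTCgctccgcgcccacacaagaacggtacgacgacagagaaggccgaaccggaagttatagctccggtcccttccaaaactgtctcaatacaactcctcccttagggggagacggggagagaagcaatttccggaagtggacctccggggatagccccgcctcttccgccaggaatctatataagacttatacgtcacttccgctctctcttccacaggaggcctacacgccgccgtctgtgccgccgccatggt
Dnajb6 (chr5:29735648-29735947, plus strand): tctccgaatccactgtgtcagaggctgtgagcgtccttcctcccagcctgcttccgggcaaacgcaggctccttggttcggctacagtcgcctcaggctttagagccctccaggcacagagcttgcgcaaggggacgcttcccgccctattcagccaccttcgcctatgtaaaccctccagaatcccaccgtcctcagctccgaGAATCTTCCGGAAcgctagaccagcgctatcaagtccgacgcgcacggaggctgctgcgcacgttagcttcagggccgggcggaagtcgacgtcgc
Fos (chr12:85473640-85473939, plus strand): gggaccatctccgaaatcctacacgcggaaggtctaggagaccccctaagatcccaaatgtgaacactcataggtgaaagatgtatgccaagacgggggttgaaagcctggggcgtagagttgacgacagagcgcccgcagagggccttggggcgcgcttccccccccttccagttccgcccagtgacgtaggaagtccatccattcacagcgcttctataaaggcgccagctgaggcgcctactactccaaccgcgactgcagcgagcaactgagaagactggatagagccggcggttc

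At Hspe1, which encodes the mitochondrial co-chaperonin, both antibodies peaked 89 to 119 bases before the gene start, within the window that holds 2 overlapping matches. The CS peak held 319, 938 and 1275 tags in order of time, and the MM peak held 266, 779 and 1096 tags. At Dnajb6, a J domain cochaperone of Hsp70, CS had 117 tags at 12 min and no peak at 60 min, whereas MM had 68 tags at 12 min and 61 tags at 60 min, 108 bases before the start. At Rps18, a ribosomal protein gene that shares its start region with Vps52, CS had no peak at 12 min and 184 tags at 60 min, against 77 and 138 tags for MM. The Fos window held no match, and at this immediate early gene the CS summit of 12 min lay 380 bases before the start and the MM summit of 60 min 39 bases after it. The CS and MM peaks around these summits overlapped each other.

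Among all 32585 promoter windows, 0.608% held the longer motif and 7.91% the shorter. Windows under a CS peak alone held the longer motif in 1 of 60 cases at 12 min (1.67%, with an interval of 0.0422% to 8.94%). At 60 min 1 of 100 did (1%, 0.0253% to 5.45%). No window lay under a CS peak alone before heat shock. Windows under an MM peak alone held it in 3 of 86 cases in unheated cells (3.49%, 0.725% to 9.86%), 5 of 138 at 12 min (3.62%, 1.19% to 8.25%), and, at 60 min, 9 of 441 (2.04%, 0.937% to 3.84%). The share was higher under regions found by both, at 25% of 40 windows (12.7% to 41.2%), 7.61% of 381 (5.16% to 10.7%) and 6.68% of 674 (4.91% to 8.83%). All intervals here are 95% exact (Clopper-Pearson) binomial intervals and cover counting error only. The shorter motif gave the other order of the antibodies at 12 and 60 min, with intervals that overlapped for either motif. It was held by 10% of CS-alone windows at 12 min (6 of 60, 3.76% to 20.5%) and, at 60 min, by 15% (15 of 100, 8.65% to 23.5%). Of MM-alone windows 9.30% held it in unheated cells (4.10% to 17.5%), 9.42% at 12 min (5.11% to 15.6%), and, at 60 min, 7.03% (4.83% to 9.83%). Windows found by both held it in 40% (24.9% to 56.7%), 21.5% (17.5% to 26.0%) and 18.1% (15.3% to 21.2%) of cases. GC content is given beside these shares, and its part in them was not tested. Its median was 58.7% and 55.5% in CS-alone windows at 12 and 60 min, 62.8%, 60.2% and 65.7% in MM-alone windows, 63.7%, 62.7% and 61% in windows found by both, and 53% in all promoters.

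The first comparison asked how many peaks of each antibody the other one missed. Single CS peaks numbered 59 of 180 in unheated cells (32.8%, with an interval of 26.0% to 40.2%), 368 of 1781 at 12 min (20.7%, 18.8% to 22.6%), and 1316 of 4773 (27.6%, 26.3% to 28.9%) at 60 min. Single MM peaks numbered 328 of 449 in unheated cells (73.1%, 68.7% to 77.1%), 507 of 1927 at 12 min (26.3%, 24.4% to 28.3%), and, at 60 min, 1110 of 4614 (24.1%, 22.8% to 25.3%). Over whole lists MM thus had the higher single share before heat shock and at 12 min, and CS at 60 min. In each case this was the longer list of that time. The order of the first 2 times was kept without knockout peaks, at 37.1% for CS and 74.6% for MM before heat shock. At 12 min these shares were 20.9% and 28.0%. With FDR of 5% or less on both lists it was also kept at 12 min, at 17.4% for CS and 23.1% for MM. It was not kept under a stricter p limit. With both lists held to p of 1e-10 or less, the share was 35.4% for CS and 32.6% for MM before heat shock, and 15.1% for CS and 14.7% for MM at 12 min, with intervals that overlapped. With lists of equal length it was 45% for each before heat shock, and 22.7% for CS and 22.4% for MM at 12 min. Nearly all shared regions held 1 CS and 1 MM peak (100%, 99.4% and 98.6% in order of time). The longer list must then have the higher single share, and lists of equal length near equal shares. The p limit left 48 CS and 46 MM peaks before heat shock, and 761 and 757 at 12 min. At 12 min the FDR limit left 1139 and 1226. The higher share was that of the longer list under each limit and without knockout peaks, so none of these can order the antibodies. At 60 min CS stayed the higher with p of 1e-10 or less on both lists, at 26.5% of 2381 peaks against 8.04% of 1915, and was again the longer list. Equal lengths gave 25.9% for CS and 24.9% for MM at that time. The CS libraries kept more tags after duplicate removal (25.2, 26.3 and 19.6 M, M for mega) than the MM libraries (15.9, 17.7 and 14.0 M), and the lists of a time were called against the same IgG library of 10.1, 12.3 or 9.23 M tags. The part of these depths in the single shares was not tested.

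Few peaks sat near the limit that decides their class. The shortest overlap of a CS with an MM peak was 103, 72 and 58 bp in order of time. At 12 min 3 single CS peaks and 4 single MM peaks lay within 500 bp of a peak of the other antibody, the nearest 102 and 24 bp away. At 60 min 8 single CS peaks and 15 single MM peaks did, the nearest 266 and 77 bp away. Before heat shock none did, of 59 CS peaks and 328 MM peaks, which allows shares of up to 5.08% and 0.915%.

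Single peaks held fewer tags than overlapped peaks of the same list. Median tags were 33 in single CS peaks and 61 in overlapped CS peaks before heat shock, 43 and 79 at 12 min, and 38 and 86 at 60 min. For MM they were 11 in single and 28 in overlapped peaks before heat shock, 23 and 45 at 12 min, and 25 and 42 at 60 min. The ranges overlapped in every list: at 60 min single CS peaks held 17 to 196 tags and overlapped CS peaks 22 to 1818, and single MM peaks held 9 to 144 tags and overlapped MM peaks 10 to 1429. At 60 min 50 of 1316 single CS peaks (3.80%) and 205 of 1110 single MM peaks (18.5%) reached the median of the overlapped peaks of their list.

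**Figure D1:**
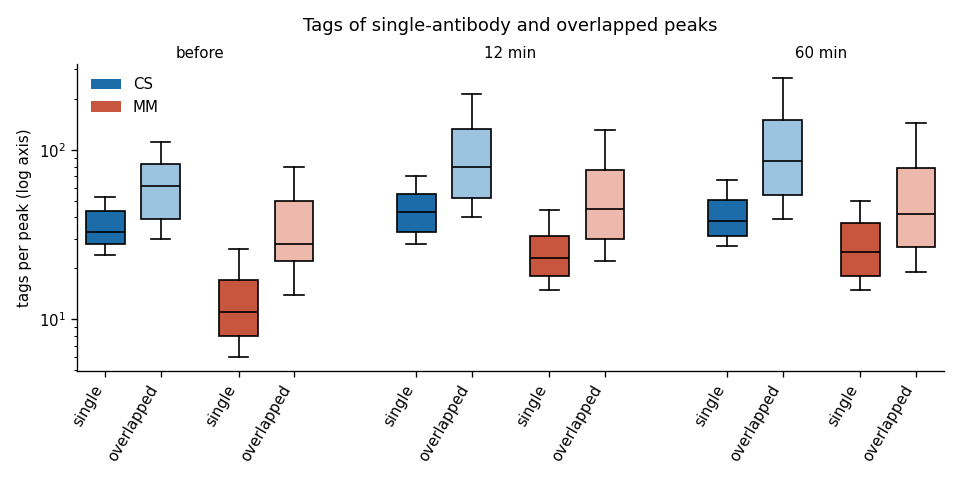
Tags per peak on a log axis for single (dark) and overlapped (pale) peaks of CS (blue) and MM (red) at each time; boxes span the quartiles with the median as a line, and whiskers run from the 10th to the 90th percentile. Single peaks sit lower in all 6 lists, with medians at 60 min of 38 against 86 tags for CS and 25 against 42 tags for MM.

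Single peaks were also narrower and had weaker scores. Their median width was 330, 680 and 799 bp for CS, against 434, 808 and 986 bp for overlapped CS peaks, and 155, 509 and 581 bp for MM, against 324, 638 and 630.5 bp for overlapped MM peaks. A p of 1e-10 or less was reached by 1, 9 and 105 single CS peaks (1.69%, 2.45% and 7.98%), against 38.8%, 53.2% and 65.8% of overlapped CS peaks. It was reached by 0, 6 and 11 single MM peaks (0%, 1.18% and 0.991%, the 0 of 328 allowing up to 0.915%), against 38.0%, 52.9% and 54.3% of overlapped MM peaks. A deposited FDR of 5% or less was given to 56.2% of single and 92.2% of overlapped CS peaks at 60 min, and to 42.0% of single and 88.0% of overlapped MM peaks. Before heat shock the only peak of either list at this FDR was 1 overlapped MM peak.

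The single share was then read along each list, cut into 5 bins of equal size by tags, bin 1 holding the most. At 60 min it was 0.209% in bin 1 of the CS list and 68.6% in bin 5. For MM these shares were 1.84% and 45.4%. At 12 min bins 1 and 5 had 0.840% and 48.3% for CS and 1.55% and 61.6% for MM. Before heat shock they had 0% (0 of 36, interval up to 9.74%) and 66.7% for CS, whereas 31.1% of bin 1 and 100% of bin 5 of the MM list were single.

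**Figure D2:**
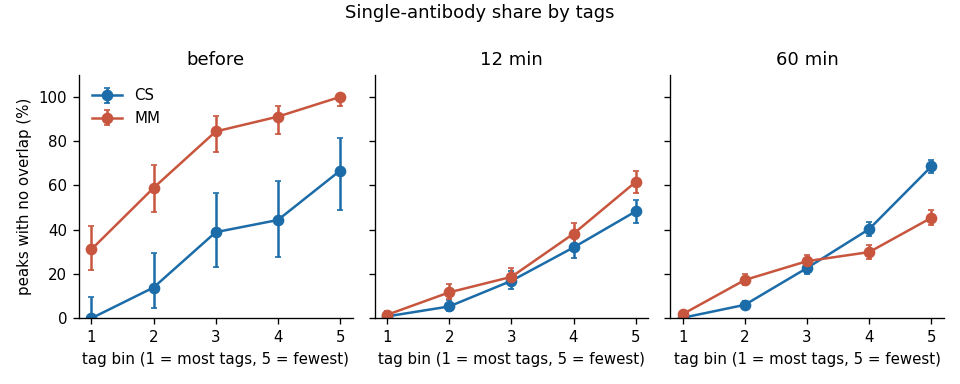
Share of peaks with no overlap in the other list (y axis, percent) by tag bin (x axis, 1 holding the most tags), for CS (blue) and MM (red) at each time, with 95% exact intervals. After heat shock bin 1 lies between 0.209% and 1.84%, while before heat shock 31.1% of bin 1 of the MM list was single.

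Where both antibodies found a region, their summits nearly coincided. The median distance between the CS and MM summits was 31 bp in the 121 shared regions of unheated cells, 20 bp in the 1412 of 12 min, and 19 bp in the 3455 of 60 min, a shared region being a group of overlapping CS and MM peaks. The summits were within 100 bp of each other in 91.7%, 96.1% and 96.5% of regions. CS peaks were the wider in 85.1%, 87.8% and 96.3% of regions, by a median ratio of CS to MM width of 1.29, 1.26 and 1.57. The fragment length estimated for each library by the peak caller was 45, 128 and 161 bp for CS and 40, 107 and 114 bp for MM, and its part in the widths was not tested. Per M kept tags, the median ratio of CS to MM was 1.07, 1.15 and 1.37, with CS the higher in 59.5%, 72.3% and 86.4% of regions.

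Shared regions at protein-coding genes that departed furthest from this median ratio, with at least 20 tags in each list, were listed at each time. For each antibody the tags and width are those of its peak with the most tags in the region. Peaks were called separately in each list, so the widths stand beside the ratios. Before heat shock the highest ratio was at Ubb, a polyubiquitin gene, with 2.74 tags per M kept tags over 486 bp for CS against 1.51 over 226 bp for MM (ratio 1.82). The lowest ratio of that time, 0.632, was at the shared end of Trim65 and Mrpl38, with 3.77 over 512 bp for CS against 5.96 over 841 bp for MM. Hsp90aa1, the inducible Hsp90, had 0.687, with a CS peak of 464 bp and an MM peak of 426 bp. At 12 min the ratio was 2.86 at Stat6, a cytokine-activated transcription factor, where the CS peak spanned 1568 bp and the MM peak 431 bp, and 2.36 at Flnc, a filamin, with 1932 bp for CS and 771 bp for MM. It was 0.569 at Herc4, with 802 bp for CS and 1295 bp for MM, and 0.660 at Csrnp2, with 751 and 956 bp. At 60 min it was 3.78 at 5430402E10Rik on chromosome X, with 869 bp for CS and 531 bp for MM, 3.41 at Krtap1-4 with Krtap1-5, with 2218 and 725 bp, and 3.37 at Gm14744, with 813 and 391 bp. The low ratios of 60 min were 0.598 at Pakap, with 882 bp for CS and 1192 bp for MM, 0.659 at Macrod1, with 1173 and 1659 bp, and 0.672 at Ankrd11, with 1394 and 1682 bp. At each region named here except Hsp90aa1, the antibody with more tags per M had the wider peak, and the part of width in these ratios was not tested. The keratin-associated genes belong to a multigene family, and the placing of tags among such copies is not stated in the labels or headers.

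The next comparison asked where single peaks lay relative to genes. A peak is at a gene end where its summit lies within 1 kb of either annotated end of any gene, and 26.7%, 24.9% and 18.0% of all CS peaks and 36.3%, 28.2% and 24.5% of all MM peaks did so in order of time. Single CS peaks were at gene ends in 6 of 59 cases in unheated cells (10.2%, 3.82% to 20.8%), in 71 of 368 (19.3%, 15.4% to 23.7%) at 12 min, and in 181 of 1316 (13.8%, 11.9% to 15.7%) at 60 min. Overlapped CS peaks had 34.7% (26.3% to 43.9%), 26.3% (24.0% to 28.7%) and 19.6% (18.3% to 20.9%). Single MM peaks were at gene ends in 121 of 328 cases in unheated cells (36.9%, 31.7% to 42.4%), in 167 of 507 (32.9%, 28.9% to 37.2%) at 12 min, and in 440 of 1110 (39.6%, 36.7% to 42.6%) at 60 min. Overlapped MM peaks had 34.7% (26.3% to 43.9%), 26.5% (24.3% to 28.9%) and 19.7% (18.4% to 21.1%).

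Single peaks of the antibodies thus differed in place, with those of CS less often and those of MM more often at gene ends than the overlapped peaks of the same list, by counts that were not tested. The intervals of the classes overlapped widely for MM before heat shock, where the sign turned with a limit of 5 kb (-0.670 percentage points), and did not overlap for either antibody at 60 min. At annotated gene starts alone the single shares were 1.69%, 13.6% and 7.22% for CS and 30.5%, 24.7% and 33.4% for MM, against 24.0%, 20.6% and 14.2% for overlapped CS peaks and 24.0%, 20.8% and 14.2% for overlapped MM peaks. Outside genes lay 40.7%, 33.7% and 40.0% of single CS peaks and 31.1%, 26.0% and 20.4% of single MM peaks, against 31.9% of overlapped peaks of either list at 60 min. In the knockout lists, 13.7% to 16.3% of CS peaks and 15.2% to 19.3% of MM peaks were at gene ends.

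**Figure D3:**
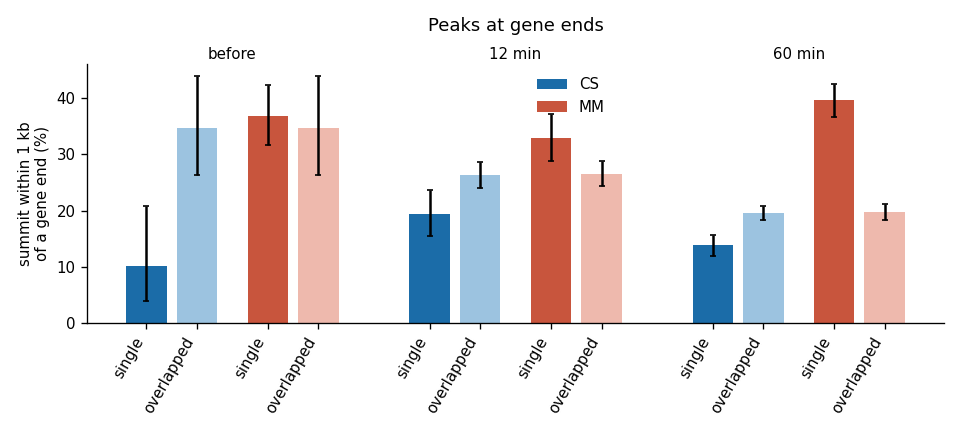
Share of peaks with the summit within 1 kb of an annotated gene end (y axis, percent) for single (dark) and overlapped (pale) peaks of CS (blue) and MM (red) at each time; bars start at 0 and error bars are 95% exact intervals. At 60 min single peaks of MM reach 39.6% against 19.7% for overlapped ones, and single peaks of CS 13.8% against 19.6%.

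Tags moved with this position, so the shares were set side by side within the tag bins of each list, an alternative chosen after the data were seen. Weighted by the single peaks in each bin, single minus overlapped CS peaks then gave -6.51, 2.67 and 1.83 percentage points, against -24.5, -7.03 and -5.83 over whole lists, so the direction turned at 12 and 60 min. Single minus overlapped MM peaks gave 31.1, 15.3 and 26.8 points within bins, against 2.18, 6.39 and 19.9 over whole lists. Bins without both classes were left out, so the values before heat shock cover fewer peaks than the whole lists. Bin 5 of the MM list, with 89 single peaks (7.87% at gene ends) and no overlapped ones, was dropped, and bin 4 held 8 overlapped peaks. Bin 1 of the CS list, with 36 overlapped peaks (55.6% at gene ends) and no single ones, was dropped. In bin 2 of the MM list at 60 min, with 44 to 76 tags, 114 of 160 single peaks (71.2%, 63.6% to 78.1%) were at gene ends, against 159 of 763 overlapped peaks (20.8%, 18.0% to 23.9%). In bin 2 of the CS list, with 81 to 142 tags, 21 of 58 single peaks were (36.2%, 24.0% to 49.9%), against 177 of 897 overlapped peaks (19.7%, 17.2% to 22.5%).

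**Figure D4:**
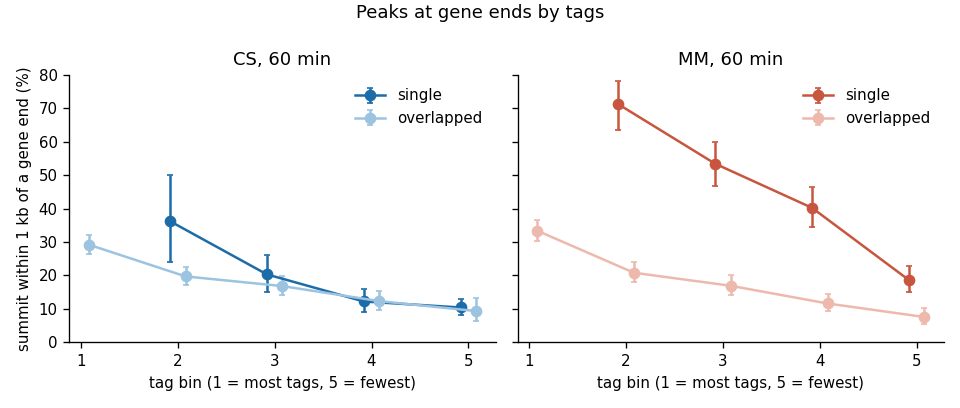
Share of peaks at gene ends (y axis, percent) at 60 min by tag bin (x axis, 1 holding the most tags), for single (dark) and overlapped (pale) peaks of CS (left) and MM (right), with 95% exact intervals; points with under 20 peaks are left out. Single MM peaks lie above overlapped ones in each bin drawn, with 71.2% against 20.8% in bin 2, while in the CS list the classes are close in bins 4 and 5, at 12.2% against 12.3% and 10.4% against 9.33%.

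The share of peaks over knockout peaks depended on which knockout lists were counted. A knockout peak of the same antibody and time overlapped 1.69%, 2.72% and 0.988% of single CS peaks and 6.61%, 2.05% and 2.29% of overlapped CS peaks. For MM it overlapped 2.74%, 3.55% and 2.07% of single peaks and 2.48%, 1.41% and 0.913% of overlapped peaks. A knockout peak of any antibody and time overlapped 1.69%, 11.1% and 5.85% of single CS peaks and 16.5%, 11.5% and 8.82% of overlapped CS peaks, and 11.3%, 7.89% and 11.5% of single MM peaks and 14.9%, 10.4% and 6.93% of overlapped MM peaks. The part of this background in the single peaks was not tested. The single peak with the most tags of all lists, an MM peak of 12 min on chromosome 1 (chr1:24611282-24616333), held 2701 tags at a fold of 3.53 over background. No other wild type list had a peak there, whereas all 6 knockout lists did, with up to 1098 tags in the MM library of 12 min.

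The next comparison asked whether single peaks came back at other times. Of the 59 CS peaks that were single in unheated cells, 58 (98.3%, 90.9% to 100%) overlapped a peak of both antibodies at 12 min and again of both at 60 min, as did 119 of the 121 overlapped CS peaks (98.3%, 94.2% to 99.8%) at each time. The exception lay inside Dock2, with 56 tags. Of the 328 single MM peaks before heat shock, 60 (18.3%, 14.3% to 22.9%) overlapped peaks of both antibodies at 12 min, and 256 (78.0%, 73.2% to 82.4%) overlapped none of the other lists of either antibody. Of overlapped MM peaks, 98.3% (94.2% to 99.8%) overlapped both 12 min lists.

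Of the 368 single CS peaks at 12 min, 225 (61.1%, 56.0% to 66.1%) overlapped a CS peak at 60 min and 177 (48.1%, 42.9% to 53.3%) an MM peak. Of the 507 single MM peaks at 12 min, 199 (39.3%, 35.0% to 43.7%) overlapped an MM peak at 60 min and 209 (41.2%, 36.9% to 45.6%) a CS peak. Both 60 min lists were hit by 44.3% of single CS peaks and 87.8% of overlapped CS peaks, and by 34.5% of single MM peaks and 87.7% of overlapped MM peaks. Looking back, 1161 of 1316 single CS peaks (88.2%) and 1054 of 1110 single MM peaks at 60 min overlapped neither 12 min list, against 54.8% of overlapped peaks of either antibody.

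Peaks that stayed with 1 antibody were few: 60 single CS peaks and 24 single MM peaks at 60 min were also in the 12 min list of the same antibody and overlapped no peak of the other antibody at any time. Among those with the most tags, the CS peaks lay inside Fbxl17 and Tmem165, at Tnfsf9, which encodes a ligand of the TNF family, and at 2 places outside protein-coding genes. That at Tnfsf9 held 87 tags at 12 min and 95 at 60 min, and MM had no peak there. The MM peaks were all at gene ends: Alkbh5, an RNA m6A demethylase, with 59 and 91 tags at 12 and 60 min, Wtap, a subunit of the m6A writer complex, with 36 and 71, Lpin2, a lipin phosphatase, with 24 and 56, Spen, a transcriptional corepressor, with 31 and 50, and Cdc42ep1, a Cdc42 effector, with 47 and 50. CS had no summit within 1 kb of an end of these 5 genes at any time, and its nearest peaks of 60 min to those at Spen and Lpin2 lay 6427 and 8275 bp away.

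The last comparison asked which genes had a peak of only 1 antibody. A protein-coding gene was called shared where the summit of a shared region lay within 1 kb of either end, and CS only or MM only where no shared region did but a single peak of that antibody did. Of 21631 genes, 2 (0.00925%) were CS only in unheated cells, 63 (0.291%) were at 12 min, and 111 (0.513%) at 60 min. MM only were 120 (0.555%), 160 (0.740%) and 444 (2.05%), and shared were 42 (0.194%), 330 (1.53%) and 559 (2.58%). Srxn1, which encodes sulfiredoxin, had single peaks of both antibodies apart from each other at 60 min, with 105 CS and 92 MM tags.

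Chaperone genes were among those with MM alone before heat shock. Of the 78 genes of 8 chaperone lists, 16 were shared before heat shock (20.5%, interval 12.2% to 31.2%, against 0.194% of all genes). MM only were 9 (11.5%, interval 5.41% to 20.8%, against 0.555% of all genes). None was CS only, which allows up to 3.85%, against 0.00925% of all genes. Of those 9 MM-only genes, 7 were shared at 12 min, against 30 of all 120 MM-only genes (25%, 17.5% to 33.7%). At 12 and 60 min 45 of the 78 genes were shared (57.7%, against 1.53% and 2.58% of all genes). MM only were 3 and 2 (3.85% and 2.56%, against 0.740% and 2.05% of all genes), so the share of 60 min was near that of all genes. CS only were 0 and 1 (0% and 1.28%, against 0.291% and 0.513% of all genes). The lists were chosen with earlier results of these data known.

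The cytosolic members of this group were Hspa4l, an Hsp110, Ptges3 and Ppid, cochaperones of Hsp90, and Dnajb1, the J domain partner of Hsp70. Hspa4l had 23 MM tags before heat shock, then 380 CS and 230 MM tags at 12 min and 580 CS and 510 MM tags at 60 min. Dnajb1 had 42 MM tags before heat shock, then 651 CS and 427 MM tags at 12 min and 1016 CS and 700 MM tags at 60 min. The MM list held 2 peaks there before heat shock, of which that of 42 tags overlapped a knockout MM peak of at least 1 time and that of 37 tags overlapped none. Ptges3 and Ppid had 34 and 15 MM tags before heat shock.

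The TRiC chaperonin folds actin and tubulin. Of its 8 listed subunit genes, Tcp1, Cct6a and Cct8 were MM only before heat shock, with 32, 46 and 46 MM tags, 3 others were shared, 2 had no peak at an end, and all 8 were shared at 12 and 60 min. Cct8 had 320 CS and 192 MM tags at 12 min and 488 CS and 347 MM tags at 60 min. Tcp1 shares its peak with Mrpl18, and Cct6a with Psph. Zfand2a of the ubiquitin list, a stress-inducible protein that associates with the proteasome, had 40 MM tags before heat shock, then 488 CS and 307 MM tags at 12 min. No CS peak was listed at an end of any of these 8 genes before heat shock.

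**Figure D5:**
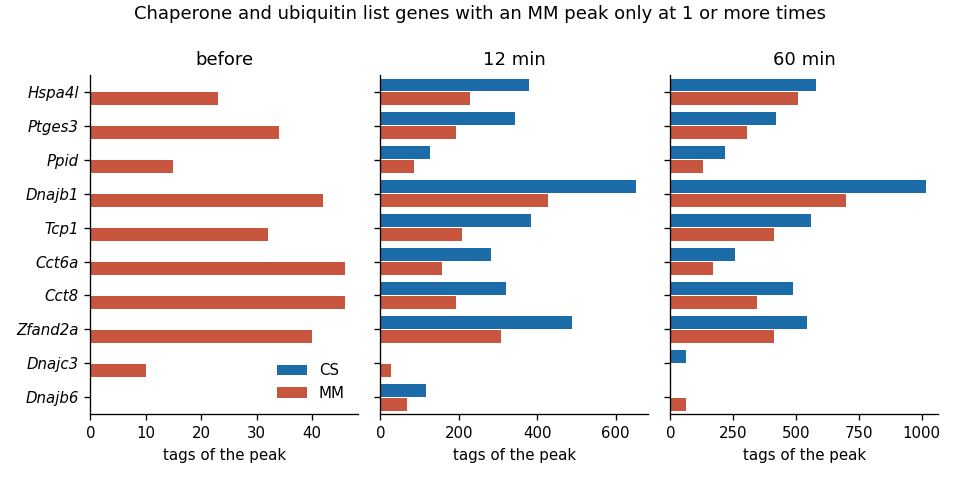
Tags of the CS (blue) and MM (red) peak with the most tags within 1 kb of an end of 10 genes (rows) before heat shock, at 12 and at 60 min (x axes differ between times); no bar means no peak in the list. The upper 8 genes have an MM bar alone before heat shock, of 15 to 46 tags, and both bars later.

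Other MM-only genes before heat shock included Ube2g2, a ubiquitin-conjugating enzyme, with 63 tags, and Ubqln1, a ubiquilin, with 46 tags. Both were shared later, Ubqln1 with 479 CS and 295 MM tags at 12 min. Clpp, a mitochondrial protease subunit with 16 MM tags at an end near Alkbh7, had no peak at an end later. Dnajc3, an endoplasmic reticulum cochaperone, was MM only before heat shock (10 tags) and at 12 min (27 tags) and CS only at 60 min (61 tags). The CS peak of 60 min lay over the MM peak of 12 min. The MM peak before heat shock was at another place, its summit 580 bp inside the gene, and overlapped no other wild type peak. The 2 CS-only genes before heat shock were Vwa1, with 41 tags and a summit 992 bp from its end, and Etnk2, with 21 tags. Both peaks overlapped peaks of both antibodies at 12 and 60 min.

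After heat shock the single genes of the lists were scattered. At 12 min Trap1, the mitochondrial Hsp90 (27 tags), Grpel1, the nucleotide exchange factor of mitochondrial Hsp70 (21 tags), and Klf6 of the immediate early list (23 tags), were MM only, while Fos (73 tags) and Fosl2 (99 tags) of that list were CS only. At 60 min MM only held Lonp1, a mitochondrial protease (47 tags), Sqstm1, an autophagy receptor (39 tags), Psmb5, a proteasome subunit (20 tags), the immediate early genes Fos (30 tags) and Ier2 (103 tags) and Myh9, a nonmuscle myosin heavy chain (126 tags). The MM peaks at Trap1 and Dnajb6 overlapped knockout MM peaks of at least 1 time, and the Lonp1 peak also lay at an end of Rpl36. No marker of other cell types (0 of 20) and no heat shock factor gene (0 of 6) had a peak of either antibody at an end at any time, counts of 0 that allow shares of up to 15% and 50%. Of all protein-coding genes 0.758%, 2.56% and 5.15% had one in order of time, so these counts do not set the lists apart.

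The single peaks with the most tags at protein-coding gene ends were then listed whatever their gene, list members such as Rps18, Myh9, Ier2 and Srxn1 included. At 12 min CS had Atad2, a bromodomain protein (173 tags), Pcbp1, an RNA-binding protein (156), Septin2 with Hdlbp (130), Dnm1l, a GTPase of mitochondrial fission (110), and Mrps7 with Gga3 (101). The CS peaks at Pcbp1 and at Septin2 overlapped knockout CS peaks of at least 1 time. Atad2 was shared at 60 min with 332 CS and 216 MM tags. MM had the predicted genes Gm3435 and Gm3448 at 1 peak (139), Pacsin2, a membrane-bending protein (81), Vps52 with Rps18 (77), Vps16 with Pced1a (72) and Rad51c with Tex14 (71), those at Gm3435 and Rad51c also overlapping knockout MM peaks.

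At 60 min CS had Btd, biotinidase (141), 2300009A05Rik (139), S100a10, a partner of annexin (133), Tmem95 (124) and Cstf1 with Aurka (114). MM had Myh9 (126), Sf1, a splicing factor (113), Ier2 (103) and Srxn1 (92). Of the CS peaks, that at Tmem95 overlapped peaks of both antibodies at 12 min, with 137 CS and 44 MM tags. That at S100a10 overlapped an MM peak but no CS peak at 12 min. Those at Btd, 2300009A05Rik and Cstf1 overlapped no wild type peak of either antibody at another time. The MM peak at Sf1 overlapped a knockout MM peak, and those at Myh9 and Ier2 lay 5214 and 4097 bp from the nearest CS peak.

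Away from protein-coding gene ends, the single CS peaks with the most tags at 12 and 60 min held 181 and 196 tags. They lay outside protein-coding genes on chromosomes 8 and 9 (chr8:126665424-126668031 and chr9:66987931-66991394). The one on chromosome 8 overlapped peaks of both antibodies at 60 min. The one on chromosome 9 overlapped a knockout CS peak of at least 1 time and an MM peak of 12 min. Single MM peaks at 60 min included one of 125 tags in Tns2, a tensin, and one of 120 tags in Myc, 1848 bp from a protein-coding gene end. Before heat shock the single MM peak with the most tags, 131 in Gm36327, overlapped a knockout MM peak and no other wild type peak.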

How the data were processed

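The authors called the wild type CS and MM peaks with MACS 1.4.2 (p cutoff 1e-04, at most 1 tag per position), using IgG of that time as control, per the file headers. Knockout peaks were called with the same tool and cutoff without a control, and SRF peaks with MACS 2.0.9 against IgG, per the file headers. Tags were aligned to mm10, per the labels, with an aligner not given in the sources used here. Each deposited peak carries a tag count, a score (the log10 of its p-value, sign turned and multiplied by 10), a ratio to background called fold enrichment and, with a control, an FDR in percent, all the authors' values. For SRF peaks the pileup signal is deposited by the authors, and only their positions were used. Low scores and tags limit what a list holds: a peak just under the cutoff of a list counts as missing.

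Peaks were overlapped in Python 3.11.15 (pandas 2.3.3, numpy 2.4.6, scipy 1.17.1), with a 1 bp minimum, and the overlap code was tested on simulated intervals. Shares carry 95% exact (Clopper-Pearson) intervals, and a share of 0 carries the limit given by 3 counts of the total. Such intervals cover counting error only. No p-value was computed, since each antibody and time had 1 list. Agreement of tags between CS and MM was planned as a rank correlation and was not computed, because the lists share their IgG library. Gene positions came from RefSeq GRCm38.p6, the primary assembly of mm10 (49554 genes, of which 21631 protein-coding on chromosomes 1 to 19 and X), and promoter windows from the same source, with one found for 17274 protein-coding genes. All 193 genes of the 15 gene lists were in that table. Members and lists were chosen with earlier results of these data known.

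The genes named were, for each time and antibody, the 5 single peaks with the most tags at protein-coding gene ends and the 3 elsewhere; the 3 highest and 3 lowest ratios of CS to MM among shared regions; list genes with a single peak and no shared region; and up to 5 peaks per antibody that recurred without the other antibody. Some of the genes this rule names are not reported here. The 4 promoters printed, the peak in Dock2 and the tags of other times were chosen after values were seen. Alternatives tried were the minimum overlap, a 500 bp gap, p of 1e-10 or less, FDR of 5% or less, equal list lengths, removal of knockout peaks and the gene end limit. Added after the data were seen were 5 bins of tags, gene starts, and gene ends without knockout peaks. The IgG and input libraries and the nascent RNA libraries were not analysed here.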

Additional observations from a re-analysis of the deposited data

Results flagged for a closer look

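The share of peaks at gene ends, single minus overlapped, had opposite signs for the antibodies at each time. It was -24.5 percentage points for CS and 2.18 for MM before heat shock, -7.03 for CS and 6.39 for MM at 12 min, and -5.83 for CS and 19.9 for MM at 60 min. These values were picked out because the contrast ran one way for every CS list and the other way for every MM list, and the difference between the antibodies was not tested. Within 5 kb the MM value before heat shock was -0.670. Tags per peak moved with the CS values. Within bins of tags that held both classes, the CS difference turned positive at 12 and 60 min while the MM difference stayed positive at all 3 times.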

How the results depend on the processing

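No paired analysis was possible because each antibody and time had 1 list and no test was made, and leaving out a replicate was not possible on merged lists. Of 118 alternative values, 72 stayed within the interval of the reported value or, for counts, within 1.5 times of it, 44 moved and 2 reversed. Of the 72, the MM gene-end difference before heat shock also turned its sign within 5 kb (-0.670), inside the interval of the reported value (-8.40 to 12.2). The single share moved most with the threshold. Among peaks with p of 1e-10 or less set against the full other list it was 2.08%, 1.18% and 4.41% for CS and 0%, 0.793% and 0.574% for MM, in order of time. With that limit on both lists it was 35.4%, 15.1% and 26.5% for CS and 32.6%, 14.7% and 8.04% for MM, and with FDR of 5% or less on both, 17.4% and 26.6% for CS and 23.1% and 18.0% for MM at 12 and 60 min. The FDR limit left too few peaks before heat shock. With 50% of the peak covered it was 42.2%, 25.9% and 41.6% for CS. With lists of equal length it was 45%, 22.7% and 25.9% for CS and 45%, 22.4% and 24.9% for MM. The higher share of MM before heat shock and at 12 min was thus lost or turned under both p limits. At 12 min it was kept under the FDR limit. Equal lengths must give near equal shares. Under a p or FDR limit on both lists the longer list must have the higher share. These limits on both lists thus cannot order the antibodies. The ratio of median tags, single over overlapped, was 0.525 for CS at 60 min and 0.790 and 0.528 for MM at 12 and 60 min with p of 1e-10 or less, and 0.593 and 0.478 for CS and 0.642 and 0.638 for MM with FDR of 5% or less. Within bins of tags the gene-end difference was -6.51, 2.67 and 1.83 points for CS, reversed at 12 and 60 min, and 31.1, 15.3 and 26.8 for MM. Bins without both classes were left out of these values. Within 5 kb it was -9.35 for CS at 60 min. Recurrence with p of 1e-10 or less was 88.9% of 9 CS peaks (interval 51.8% to 99.7%) and 66.7% of 6 MM peaks (22.3% to 95.7%) from 12 to 60 min, and 22.9% of 105 CS peaks (15.2% to 32.1%) and 9.09% of 11 MM peaks (0.230% to 41.3%) from 60 to 12 min. Within 500 bp, CS-only genes numbered 0, 38 and 69, and within 5 kb 9, 109 and 271, with 188 MM-only genes before heat shock. The causes were not tested. What the depth of each library adds to these shares was not tested, and a region under the cutoff of a list counts as missing from it.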

Other observations

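SRF peaks of the same time overlapped 2 of 368 single CS peaks and 14 of 1413 overlapped CS peaks at 12 min, and 1 of 507 single MM peaks and 14 of 1420 overlapped MM peaks. At 60 min they overlapped 0 of 1316 single and 5 of 3457 overlapped CS peaks, and 0 of 1110 single and 5 of 3504 overlapped MM peaks. The 0 of 1316 and 0 of 1110 allow shares of up to 0.228% and 0.270%. Of the MM-only promoter windows before heat shock, 3 of the 21 that were shared at 12 min held the longer heat shock element motif (14.3%, interval 3.05% to 36.3%), against 0 of the 64 with no peak at 12 min (0%, 0% to 5.60%). On chromosome X lay 26 of 1316 single CS peaks at 60 min (1.98%, 1.29% to 2.88%) and 8 of 1110 single MM peaks (0.721%, 0.312% to 1.42%), against 1.94% of overlapped CS and 1.91% of overlapped MM peaks. These values were picked after they were seen.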
